A study of Mus musculus with 6 samples.

Results

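Eph receptors and their ephrin ligands were followed in the mouse presomitic mesoderm, the still unsegmented tissue near the tail from which somites bud. The set was defined as the boundary-forming receptors Epha2, Epha3, Epha4, Epha7, Ephb2, Ephb3 and Ephb4 and the ligands Efna1, Efnb1 and Efnb2. Of these 10 genes, 9 had a probe assigned to that gene alone, among 13840 genes with such a probe, and Ephb2 was not analysed here. Where a gene had more than 1 such probe, the brightest by mean log2 intensity over 6 arrays was taken, which applied to Epha2 alone among the members (10 probes for 9 genes).

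Eph proteins are receptor tyrosine kinases that bind ephrins on the surface of neighbouring cells. A-type ephrins are held in the membrane by a lipid anchor, whereas B-type ephrins span it and can signal back into the cell that carries them. Where cells with a receptor meet cells with its ligand, signalling in both directions can drive repulsion and keep the populations apart. In somite formation this system is known for the border between a forming somite and the presomitic mesoderm, where Epha4, induced by the segmentation factor Mesp2, faces B-type ephrins. The same genes serve elsewhere in the embryo, with Efnb2 marking arteries and Ephb4 veins.

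The study compared Nrarp knockout embryos, in which LacZ stands in place of the coding region of Nrarp, with wild-type littermates, all at embryonic day 10.5 and from matings between heterozygous mice. Nrarp is a target gene of Notch whose small protein feeds back on the pathway. There were 3 one-colour arrays of each genotype, with replicate numbers 1 to 3, and 12 presomitic mesoderms were collected per genotype. How that tissue was pooled or divided over the arrays, and the strain, were not stated in the labels. The p-values therefore reflect the spread among these arrays alone, and part of it may be technical. The knockout is a loss of Nrarp in the whole embryo, and every array read a dissected bulk tissue.

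Each array held 33012 probes, scaled by the authors so that the median probe reads just under 1 (0.981 to 0.993), and array sums lay between 1019520 and 1125059. With 3 arrays a group, precision is low throughout. The Nrarp probe read 14.3, 42.5 and 23.3 on the knockout arrays and 318, 429 and 448 on the wild-type arrays, a log2 difference of -4.03 (limma adjusted p = 0.428, and 0.00042 with the replicate number as a block). With the block but a variance prior that does not follow intensity, the limma adjusted p was 0.9755. Whether this probe lies in the replaced region is not given in the sources used here. Of 9 measured presomitic mesoderm markers, 6 lay above the 75th percentile on every array and 0 below the median on every array. Among all 13840 named genes these counts were 4036 and 2926. The replicate 1 arrays of both genotypes stood apart from the other 4, their 75th percentile being 56.9 times (knockout) and 42.7 times (wild type) the 10th, against 12.4 to 16.0 times elsewhere, and the members' genotype differences are also given without them.

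Ephb4 and Efnb1 were the brightest members of the set on every array and in both genotypes, although Efna1 came close to Efnb1 on the replicate 1 arrays. Ephb4, a receptor whose preferred ligand is ephrin-B2, read 72.0, 58.8 and 63.5 on the knockout arrays and 78.8, 58.9 and 54.2 on the wild-type arrays. Efnb1, an X-linked ligand of B-type receptors, read 46.1, 86.0 and 66.9 on the knockout arrays and 41.9, 79.1 and 62.6 on the wild-type arrays. Genotypes overlapped for both genes. Ephb4 lay between percentiles 91.9 and 93.3 of all probes of its array, and Efnb1 between percentiles 89.2 and 94.6. In bulk tissue, a gene read in few cells and a gene at a low level in many cells cannot be told apart.

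Efna1, a lipid-anchored ligand of A-type receptors, came next, but its reading depended on the replicate number. It read 45.3, 3.65 and 5.61 on the knockout arrays and 40.6, 6.34 and 5.74 on the wild-type arrays. The replicate 1 arrays of both genotypes were high and the other 4 low, and the genotypes overlapped.

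The remaining 6 members were dim on most arrays. Epha4, the receptor of the segment border, read 5.50, 1.75 and 2.12 on the knockout arrays and 4.71, 2.31 and 2.25 on the wild-type arrays, above the array median on all 6. Efnb2, a B-type ligand that is also a Notch target in arterial endothelium, read 1.10, 0.549 and 0.750 on the knockout arrays and 1.75, 0.927 and 1.19 on the wild-type arrays. It lay below the array median on 3 of 6 arrays. Epha2, Epha3, Epha7 and Ephb3 each read between 0.396 (Ephb3, knockout replicate 2) and 10.6 (Epha2, knockout replicate 1). The deposited table carries no detection call, so a reading near 1 is only known to equal that of the middle probe.

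**Figure D1:**
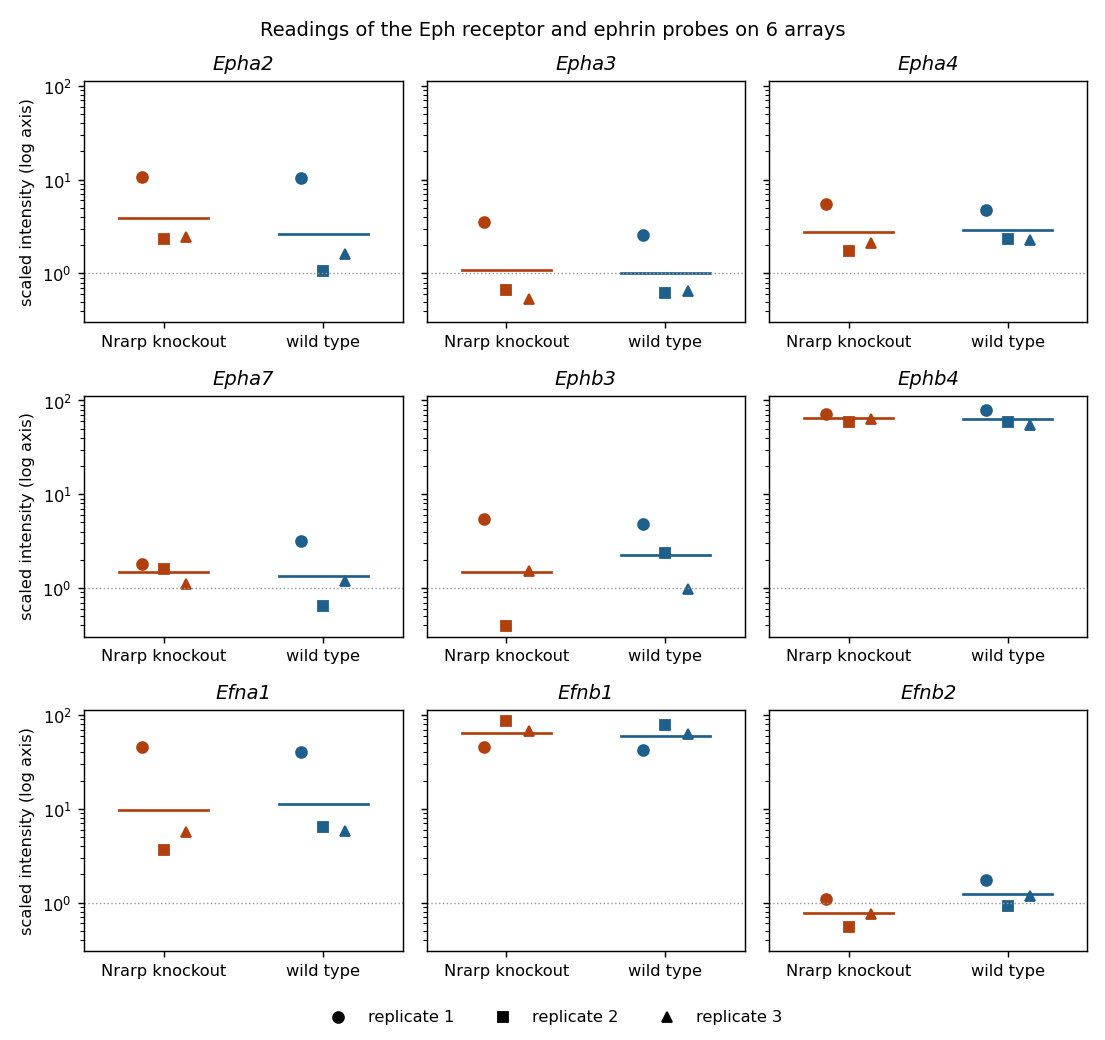
Scaled intensity (log axis) of the 9 measured members on the 3 Nrarp knockout arrays (left in each panel) and the 3 wild-type arrays (right); symbols give the replicate number, bars the geometric mean and the dotted line a reading of 1, about the array median. Ephb4 and Efnb1 stay between 41.9 and 86.0 on every array, whereas Efna1 runs between 3.65 and 45.3 with both replicate 1 arrays on top.

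Ordered by geometric mean over the 6 arrays, the probes ran Ephb4 (63.8), Efnb1 (61.7), Efna1 (10.5), Epha2 (3.19), Epha4 (2.82), Ephb3 (1.82), Epha7 (1.41), Epha3 (1.05) and Efnb2 (0.977). This is an order of probe brightness, which also depends on each probe's sequence, and not of transcript amounts. Ephb4 was brighter than Efnb1 on 2 of 6 arrays, the replicate 1 arrays, and dimmer on replicates 2 and 3 of both genotypes. The order of these neighbours thus followed the replicate number, and the first place of Ephb4 rests on the replicate 1 arrays. Efnb1 was brighter than Efna1 on 6 of 6 arrays and Efna1 brighter than Epha2 on 6 of 6. On the replicate 1 arrays Efnb1 and Efna1 were nearly level, at 46.1 and 45.3 in the knockout and 41.9 and 40.6 in wild type. From Epha2 on, each gene was brighter than the next on 3 to 5 of 6 arrays, so neighbours in this order did not differ beyond their spread. Of the 15 pairs among these 6 genes, 6 kept 1 order on every array, as Epha2 and Epha4 were each brighter than Epha7, Epha3 and Efnb2 on 6 of 6 arrays. For Epha2 this holds for its brighter probe only. The dimmer probe read 0.342 and 0.713 on knockout replicates 2 and 3, below Epha7 (1.60 and 1.10) and Efnb2 (0.549 and 0.750).

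**Figure D2:**
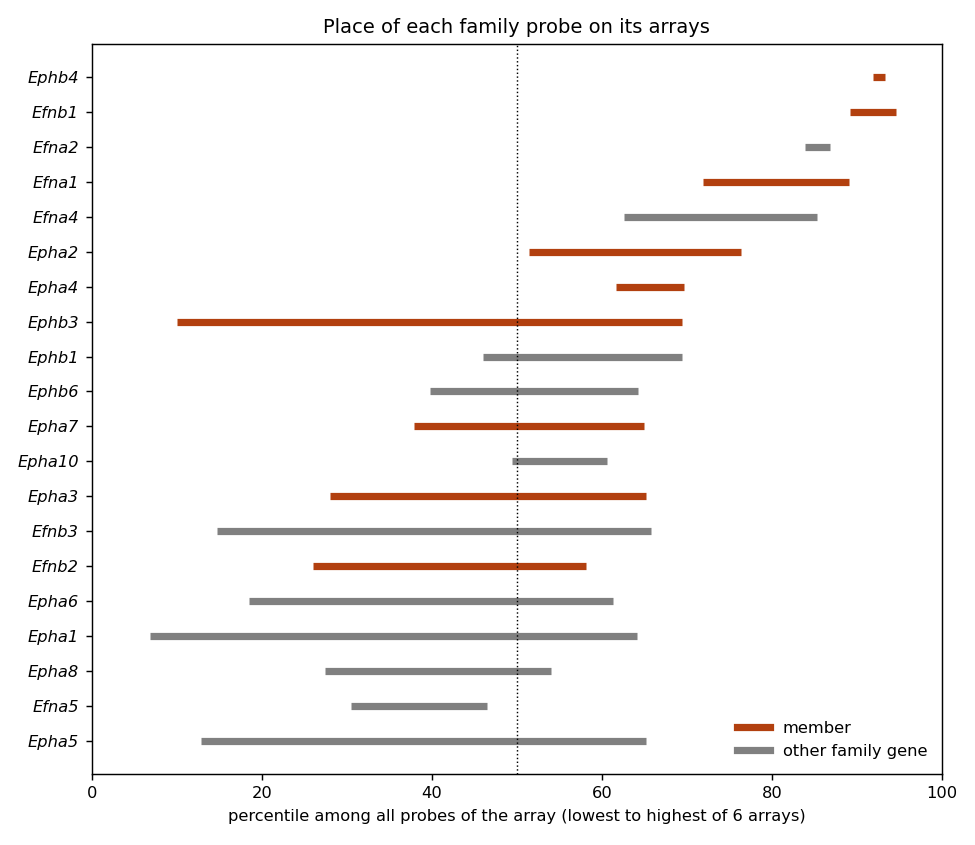
Place of each Eph and ephrin probe among all 33012 probes of its array, as the span between the lowest and highest percentile over 6 arrays; members are in red, other family genes in grey, and the dotted line marks the array median. Ephb4 and Efnb1 hold narrow spans near the top, whereas Ephb3 reaches up to percentile 69.5 and down far below the median.

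The region before the start of 4 members is shown, for the 2 bright and steady genes and for the segment-border receptor Epha4 and the Notch target Efnb2. Each run is the 250 bases before a gene start in RefSeq's table on GRCm38.p6 (for Epha4 a start slightly inside the gene's outermost bounds), written 5′ to 3′ on the gene's strand, and capitals mark matches to TGGGAA, the core bound by the Notch effector RBPJ, on either strand.
Efnb1 (chrX:99135811-99136060, plus strand): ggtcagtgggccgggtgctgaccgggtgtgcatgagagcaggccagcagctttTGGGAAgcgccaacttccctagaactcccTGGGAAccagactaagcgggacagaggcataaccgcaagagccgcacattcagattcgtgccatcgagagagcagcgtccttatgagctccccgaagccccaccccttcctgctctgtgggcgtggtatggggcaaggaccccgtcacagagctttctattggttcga
Ephb4 (chr5:137349859-137350108, plus strand): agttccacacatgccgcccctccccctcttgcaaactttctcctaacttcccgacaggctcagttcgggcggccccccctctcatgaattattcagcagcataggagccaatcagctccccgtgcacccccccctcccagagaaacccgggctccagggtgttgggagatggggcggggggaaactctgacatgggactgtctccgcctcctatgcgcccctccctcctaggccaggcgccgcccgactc
Epha4 (chr1:77515089-77515338, minus strand): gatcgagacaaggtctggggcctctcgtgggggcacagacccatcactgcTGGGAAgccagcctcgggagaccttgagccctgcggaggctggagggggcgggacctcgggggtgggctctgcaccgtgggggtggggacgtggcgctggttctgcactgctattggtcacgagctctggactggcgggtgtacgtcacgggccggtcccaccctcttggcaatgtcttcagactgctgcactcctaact
Efnb2 (chr8:8661243-8661492, minus strand): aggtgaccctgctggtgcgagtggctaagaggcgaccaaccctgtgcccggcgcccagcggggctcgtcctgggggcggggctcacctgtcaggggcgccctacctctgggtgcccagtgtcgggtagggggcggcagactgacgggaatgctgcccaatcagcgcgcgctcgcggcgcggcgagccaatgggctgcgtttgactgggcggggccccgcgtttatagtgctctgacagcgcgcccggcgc
All 10 members had such a window. TGGGAA occurred in the window of 3 of them (Epha4, Epha7 and Efnb1) and in 21.6% of all 32851 windows of the table, and Efnb1 held it at 2 places, starting 197 and 168 bases before the start. AGGTGT, a half-site of T-box factors, and CACGTG, an E-box, were searched on both strands too and occurred in the window of 0 members, against 11.8% and 6.02% of all windows. The Efnb2 window held 27 CG dinucleotides and was 72% G or C, that of Epha4 14, that of Efnb1 13 and that of Ephb4 12, against a median of 6 over all windows. A match is a description of these letters only.

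No member passed the test between genotypes. In limma fitted over all probes, 0 of 9 members had an adjusted p under 0.05 without and 0 with the replicate block, against a background of 0.0% (0 of 33012 probes) and 0.00606% (2 of 33012). At an unadjusted p under 0.05 the counts were again 0 and 0 members, where 0.657% and 3.75% of all probes lay (0.52% and 3.42% of named genes). The lack of calls without the block does not show that genes were unchanged. On simulated data built with the replicate shifts of these arrays, that fit also missed changes that had been put in. The pairing was built into those simulated arrays, so they cannot show what the fit missed on the real ones. The adjusted p was 1.00 for each of the 9 without the block and 0.999 with it. The log2 difference of knockout minus wild type was above 0 in 5 members and below 0 in 4 (3 and 6 after quantile normalization, where Epha3 and Ephb4 changed sign). Its median over the members was 0.03, against -0.0025 over all 13840 named genes. The genotypes overlapped for all 9, and among named genes every knockout array exceeded every wild-type array in 1.83% and lay below in 1.48%.

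How tightly a genotype difference was bounded varied widely between members. For Ephb4 the knockout averaged 64.8 ± 6.69 and wild type 64.0 ± 13.1 (SD, n = 3 each), a log2 difference of 0.03 with a standard error of 0.26 without and 0.12 with the block. The fold of knockout over wild type was 1.02, and its 95% interval in the blocked fit ran from 0.848 to 1.23. Efnb1 averaged 66.3 ± 20.0 in the knockout and 61.2 ± 18.6 in wild type (SD, n = 3 each), a log2 difference of 0.12 and a fold of 1.09 (blocked interval 0.915 to 1.29). For these 2 genes the blocked intervals leave room for changes of less than 1.3-fold (log2 differences of 0.11 for either gene without the replicate 1 arrays), whereas without the block the log2 intervals were wider, from -0.58 to 0.65 for Ephb4 and from -0.71 to 0.94 for Efnb1.

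Efnb1 was higher in the knockout within every pair of arrays that share a number, by 0.14, 0.12 and 0.10 on the log2 scale, while the same probe ranged 2.05-fold over the 6 arrays. The sign depends on that matching, since knockout replicate 3 (66.9) read below wild-type replicate 2 (79.1). Of the members, 2 were higher in all 3 pairs (Epha2 and Efnb1) and 1 lower (Efnb2), against 13.9% and 9.39% of named genes, and in 6 the pairs differed in sign.

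Efnb2 had the largest negative difference of the set over all 6 arrays, a rank that passed to Ephb3 without the replicate 1 arrays (-0.97). It averaged 0.798 ± 0.277 in the knockout and 1.29 ± 0.422 in wild type (SD, n = 3 each). The log2 difference was -0.70, with a standard error of 0.49 without and 0.41 with the block, and the fold of 0.616 had a blocked 95% interval from 0.321 to 1.18. The pairs gave -0.68, -0.76 and -0.66. Knockout replicate 1 (1.10) still lay above wild-type replicate 2 (0.927), and the exact permutation test of 3 against 3 arrays gave a two-sided p = 0.2, where 0.1 is the lowest value that 3 against 3 can reach. The sign held with each array left out in turn (-0.96 to -0.45), and of the 9 members this was the case for Efnb2 alone. Outside the members it also held for the family genes Ephb1, Epha8 and Efna5, which were higher in the knockout. The share of named genes that keep their sign in this way was not counted. With an offset of 0.5 before the log the Efnb2 difference was -0.46, and the filter on dim probes removed this gene. Without both replicate 1 arrays the log2 difference was -0.71 (limma adjusted p = 0.995).

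Epha4 read 3.12 ± 2.07 in the knockout and 3.09 ± 1.40 in wild type (SD, n = 3 each), a log2 difference of -0.09 whose blocked 95% interval ran from -0.72 to 0.55. Its pairs gave 0.22, -0.39 and -0.09, so that they did not share a sign, and without the replicate 1 arrays the difference was -0.24. Mesp2, a transcription factor that acts upstream of Epha4 at the segment border, read 79.9, 98.1 and 93.2 on the knockout arrays and 64.8, 81.5 and 43.0 on the wild-type arrays, a log2 difference of 0.56 (limma adjusted p = 1.00 without and 0.999 with the block).

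For Efna1 the log2 difference was -0.22, with a standard error of 1.09 without the block and 0.21 with it. The pairs gave 0.16, -0.79 and -0.03, the blocked fold interval ran from 0.611 to 1.20, and without the replicate 1 arrays the log2 difference was -0.41. Ephb3, a receptor of B-type ephrins, differed by -0.59, and this value came from pair 2 (-2.57), in which the knockout array read 0.396 and the wild-type array 2.35; pairs 1 and 3 gave 0.17 and 0.64. Without the replicate 1 arrays Ephb3 differed by -0.97. The A-type receptors Epha3 and Epha7 differed by 0.11 and 0.11, each with pairs of both signs, and Epha3 turned to -0.0087 after quantile normalization. Without the replicate 1 arrays they differed by -0.078 (Epha3) and 0.59 (Epha7).

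Epha2, a receptor prominent in epithelia, had the largest positive difference at 0.59 (blocked 95% interval -0.08 to 1.25), and its 2 probes disagreed. The brighter read 10.6, 2.33 and 2.42 on the knockout arrays and 10.3, 1.06 and 1.61 on the wild-type arrays. The dimmer read 3.52, 0.342 and 0.713 on the knockout arrays and 3.0, 0.784 and 0.571 on the wild-type arrays, with a log2 difference of -0.22. Both probes shared the high replicate 1 readings and gave opposite signs in pair 2 (1.14 and -1.20). Without the replicate 1 arrays the brighter probe differed by 0.86.

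**Figure D3:**
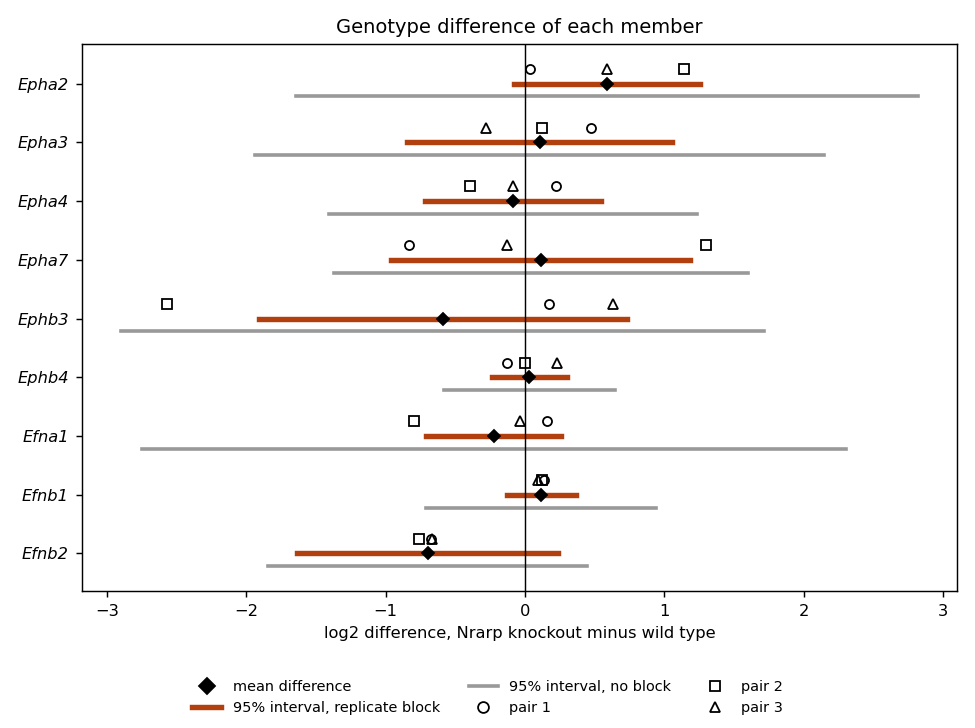
Log2 difference of Nrarp knockout minus wild type for each member (diamond), with the 95% interval of the limma fit with the replicate block (red) and without it (grey), and the difference within each pair of arrays of the same number (open symbols). All intervals include 0; those of Ephb4 and Efnb1 in the blocked fit are the narrowest, and the 3 pairs of Efnb2 lie between -0.76 and -0.66.

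In all 9 members the replicate 1 arrays differed from the other 4 by more than the genotypes differed, and in 8 of 9 after quantile normalization, where Efnb2 was the exception (0.75 against a genotype difference of -0.80). The share of named genes for which this holds was not counted, so it cannot be read as a trait of this set. Both replicate 1 arrays read above the other 4 for 7 of 9 members, against 38.1% of named genes, and below them for 1 member (Efnb1), against 26.6%. After quantile normalization the counts were 5 and 1 members, against 30.5% and 22.7% of named genes, and after centring on 75th percentiles they were 5 and 2, with Ephb4 as the second gene below. The median difference of replicate 1 minus the mean of replicates 2 and 3 was 1.28 on the log2 scale for the members and 0.07 for all named genes. As the replicate 1 arrays also have the wider spread of values, no test was made of these differences.

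Efna1 showed the largest such shift of the members. Its replicate 1 arrays were 8.21-fold above the others (log2 differences of 3.32 in the knockout and 2.75 in wild type), and 2.85% of named genes had a larger one. After quantile normalization the log2 shift was 2.47, exceeded by 3.50% of named genes. On the 4 arrays of replicates 2 and 3, Efna1 varied 1.74-fold. Epha2 (5.94-fold), Epha3 (4.84-fold) and Ephb3 (4.68-fold) were shifted the same way, as was Epha4 (2.43-fold).

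Efnb1 ran against this pattern and Ephb4 hardly took part in it. Efnb1 read 1.66-fold lower on the replicate 1 arrays, with log2 differences of -0.72 in the knockout and -0.75 in wild type, and -1.12 over both after quantile normalization. Ephb4 read 1.28-fold higher on them, and after quantile normalization the log2 shift of 0.07 left its replicate 1 arrays within the range of the others. Efnb2 read 1.69-fold higher with overlapping arrays, since the replicate 1 reading of the knockout (1.10) lay below wild-type replicate 3 (1.19).

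Other tissue markers also differed between the replicate 1 arrays and the rest. The summed reading of 11 measured neural tube markers was 229 to 234 on the replicate 1 arrays and 89.7 to 130 on the others, that of 10 surface ectoderm markers 356 to 366 against 241 to 253, that of 9 hindgut endoderm markers 267 to 298 against 138 to 183, and that of 15 endothelial markers 207 to 222 against 127 to 164. The sums of 8 primitive blood markers (4910 to 5801 against 6689 to 7750), 9 presomitic mesoderm markers (1450 to 1518 against 1537 to 1710) and 8 lateral plate and limb bud markers (9.46 to 10.5 against 13.0 to 21.1) were lower on the replicate 1 arrays. Single genes did not all follow these sums. Both replicate 1 arrays lay above the other 4 for 3 of 11 neural tube markers and below for 4 (median log2 difference -0.11), for 5 of 10 surface ectoderm markers and below for 0 (0.88), for 3 of 9 hindgut markers and below for 1 (0.11) and for 8 of 15 endothelial markers and below for 3 (1.40). They lay above for 6 of 9 presomitic mesoderm markers and below for 2 (0.76), for 4 of 8 primitive blood markers and below for 1 (0.55), and for 0 of 8 lateral plate and limb bud markers and below for 3 (-0.77). Among all named genes these shares were 38.1% above and 26.6% below. After quantile normalization the counts above and below were 3 and 4 for neural tube, 5 and 3 for surface ectoderm and 3 and 2 for hindgut. They were 9 and 3 for endothelium, 5 and 2 for presomitic mesoderm and 2 and 1 for primitive blood. For lateral plate and limb bud they were 1 and 1, and among all named genes the shares were 30.5% and 22.7%. No marker is listed at 0. The part of these tissues in the shift of Eph and ephrin readings was not tested.

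**Figure D4:**
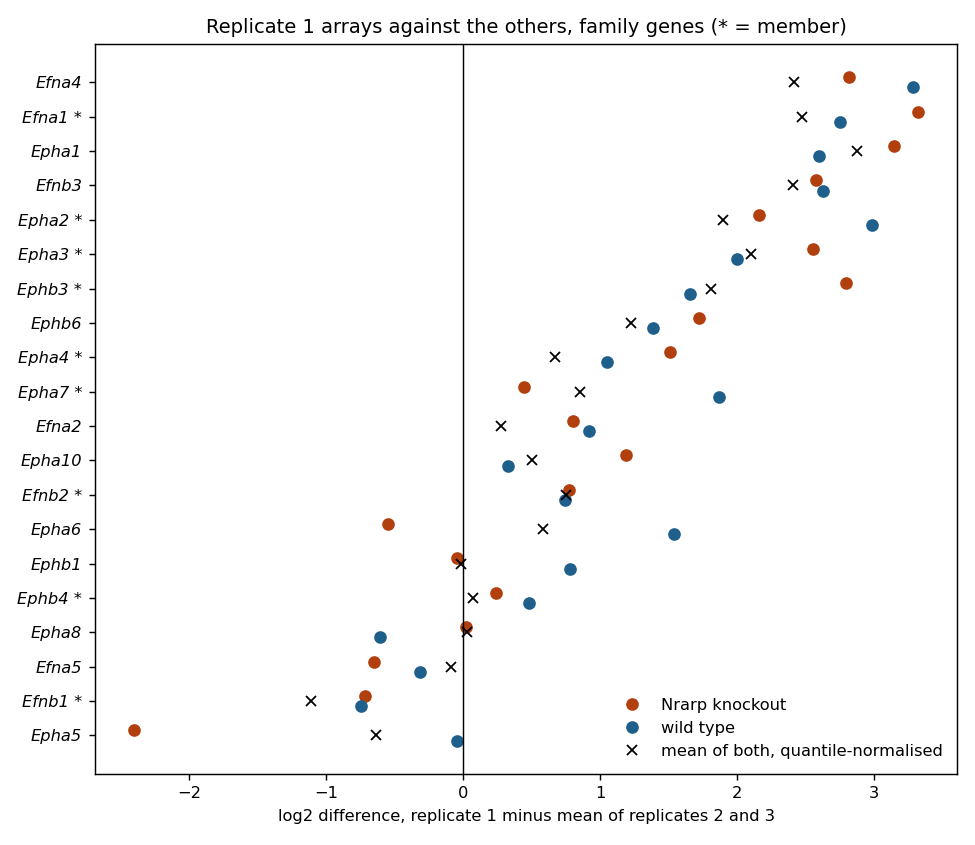
Log2 difference of replicate 1 minus the mean of replicates 2 and 3 for the 20 measured Eph and ephrin genes, in Nrarp knockout (red) and wild type (blue), with the mean of both after quantile normalization (crosses); asterisks mark members. Efna1, Epha2, Epha3 and Ephb3 lie above 1.6 in both genotypes, Ephb4 lies at 0.24 and 0.48, and Efnb1 lies below 0.

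Of 12 other family genes, 11 had a probe. The A-type ligand Efna4 was 8.27-fold, the receptor Epha1 7.33-fold and the B-type ligand Efnb3 6.07-fold higher on the replicate 1 arrays. Of the 11, both replicate 1 arrays lay above the other 4 for 6 and below for 1 (Efna5), against 38.1% and 26.6% of named genes, and after quantile normalization the counts were 4 and 0, against 30.5% and 22.7%.

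Between genotypes, 9 of these 11 genes were higher and 2 lower in the knockout by the sign of the log2 difference, its median was 0.27, and 0 passed over all probes in either fit. Among all named genes 49.5% had a difference above 0, and the count of 9 fell to 5 of 11 without knockout replicate 1, without wild-type replicate 2 or without wild-type replicate 3. Ephb1, a receptor of B-type ephrins, read 2.80, 2.63 and 3.18 on the knockout arrays and 1.61, 1.04 and 0.850 on the wild-type arrays. All 3 knockout arrays thus lay above all 3 wild-type arrays, as in 1.83% of named genes. The log2 difference was 1.34 (standard error 0.43 without and 0.36 with the block), with pairs of 0.80, 1.33 and 1.90. The limma adjusted p was 1.00 without and 0.999 with the block, the unadjusted p was 0.0143 and 0.0050, and the exact permutation test gave the smallest p of the design, 0.1 (two-sided). Its sign held with each array left out (1.14 to 1.60). Epha8, another A-type receptor, also had separated groups, at 0.918, 1.18 and 0.698 in the knockout and 0.349, 0.512 and 0.552 in wild type, a log2 difference of 0.98 with an adjusted p of 1.00 in limma, and 5 of its 6 readings lay below the array median.

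Genes that work with Eph receptors and ephrins inside the cell gave no call. Of 31 listed partners 20 had a probe, 10 differences were positive and 10 negative, the median was -0.0019, and 0 passed in either fit, nor did any reach an unadjusted p under 0.05. The smallest unadjusted p-values belonged to Ngef, which acts below Eph receptors (log2 difference -0.93, 0.711 ± 0.247 in the knockout and 1.49 ± 0.883 in wild type, SD, n = 3 each), and to Vav3. Vav3, an exchange factor recruited by activated Eph receptors, read 4.01 ± 1.84 in the knockout and 2.35 ± 0.852 in wild type (SD, n = 3 each), a log2 difference of 0.70 that was 0.26 without the replicate 1 arrays. Ngef was dim, with 4 of 6 readings below the array median.

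Of 19 listed genes of the segment border and somite, 16 had a probe, 7 of them higher and 9 lower in the knockout by sign, at a median difference of -0.04. Of these 16, 0 passed over all probes in limma, and 0 had an unadjusted p under 0.05 without and 3 with the block (Mesp2, Tbx18 and Snai1). Among all named genes the shares were 0.52% and 3.42%. Tbx18, a T-box factor of the anterior half-somite, differed by -1.02, with 0.593 ± 0.233 in the knockout and 1.20 ± 0.50 in wild type (SD, n = 3 each). Its probe was dim, with 4 of 6 readings below the array median, and the filter on dim probes removed it. With an offset of 0.5 before the log the Tbx18 difference was -0.62.

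In the embryo, Ephb4 and Efnb2 are also carried by endothelium. Of 15 measured endothelial markers, 4 lay above the 75th percentile on every array and 2 below the median on every array. Among all 13840 named genes these counts were 4036 and 2926. The summed reading of the endothelial markers was 127 to 222 in the knockout and 144 to 207 in wild type. Of their differences, 6 lay above 0 and 9 below, at a median of -0.05 with 0 calls in either fit. How much of the Ephb4 and Efnb2 reading comes from vessels was not tested.

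Across the 6 arrays, the profile of Epha4 was nearest to those of Rab14, Map4k5 and C87436 among 8323 named genes above the array median. Likeness was measured as the root mean square distance between log2 profiles centred on their own means, which was 0.05, 0.06 and 0.06 for these genes, where the Epha4 profile itself deviated from flat by 0.62. For Efnb2 the nearest were Zfp992, Arhgdib and Miga1, at 0.17, 0.17 and 0.18 against its own deviation of 0.53. The nearest member to either gene was the other one, at a distance of 0.42. With 6 arrays of which 2 stand apart, many genes could share such profiles, and their number was not counted.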

How the data were processed

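RNA of dissected presomitic mesoderm was labelled with digoxigenin and read on one-colour arrays of Applied Biosystems, according to the labels, which name a human array although the organism and the probe annotation are mouse. The deposited values are linear probe intensities that the authors scaled to a common median; the software, background correction and flags are not stated in the labels. Of 33012 probes, 14411 have 1 gene symbol, 247 several and 18354 none. Log2 intensities, with no added normalization, offset or filter, were fitted with limma 3.58.1 in R 4.3.3 (genotype only, intensity trend, two-sided, Benjamini-Hochberg over all probes). Alternatives changed the block, variance prior, scaling, offset, dim-probe filter, array weights and arrays used. The fits were tested on simulated arrays that carried the replicate deviations of these data and noise at the level of the blocked fit. Changes were put into probes with a mean log2 above 0. Of 500 changes of log2 1 and 500 of log2 2, the fit without the block found 0 and 0. The blocked fit found 59.6% and 93%, with 94 false calls over 5 runs. As the pairing was built into the simulated arrays, they cannot show which fit suits the real arrays better.

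Replicate numbers were treated as pairing the arrays, since deviations from group means correlated by 0.757, 0.442 and 0.374 within numbers, although 0.419 and 0.397 across numbers 2 and 3. The pairing thus comes from the data, and mainly from replicate 1, as the labels tie no number to a litter or day.

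Members and gene lists were chosen with earlier results of these data known. Named genes are all members, Nrarp, up to 2 examples per gene list by smallest unadjusted p, the 3 nearest profiles of Epha4 and Efnb2, the other family genes, and Snai1; family genes beyond the 2 examples and Snai1 were named after their values were seen. Promoter sequences are RefSeq's on GRCm38.p6. Figures used Python 3.11.15 and matplotlib 3.10.9.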

Additional observations from a re-analysis of the deposited data

How the results depend on the processing

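Over 15 alternative settings, 0 members passed an adjusted p of 0.05 in limma, and the smallest adjusted p of a member was 0.634 (Efnb2, array weights). The count of probes past the threshold was 0 without a block, 2 with the replicate block, 2 on replicates 2 and 3 alone and 1 with array weights; it was 0 with each array left out and under the other settings. With the replicate block no call of a member changed. At an unadjusted p under 0.05 the count was 217 in the fit without a block, against 1238 with the replicate block, 1492 with the block and no intensity trend, 333 without the trend, 47 after centring on 75th percentiles, 529 after quantile normalization, 60 with the filter on dim probes, 3145 with array weights, 1407 on replicates 2 and 3 alone, 993 without knockout replicate 1 and 419 without wild-type replicate 1. The median difference of the members was 0.03, and it was -0.17 with array weights, -0.078 on replicates 2 and 3 alone and -0.59 to 0.26 with single arrays left out.

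Of 81 member values under settings other than leaving out 1 array, 76 kept their sign. The replicate block, the variance prior and the dim-probe filter leave the difference itself unchanged, so values under them could not change sign. All 5 changes of sign fell under the other settings, which makes 76 of 81 no measure of how stable the signs are. Quantile normalization turned Epha3 to -0.0087, Ephb4 to -0.0022 and the family gene Epha1 to -0.057. Array weights turned Epha3 to -0.26, Epha1 to -0.21, Ephb6 to 0.043 and Efna2 to -0.10. On replicates 2 and 3 alone Epha3 was -0.078 and Epha1 -0.11. Ephb6 was 0.039 after centring on 75th percentiles and 0.0062 with an offset of 0.5 before the log, and the other probe of Epha2 gave -0.22. With 1 array left out, 19 of 54 member values changed sign. Their ranges were -1.33 to 0.69 for Efna1, -0.13 to 0.36 for Efnb1, -0.13 to 1.58 for Epha2, -0.74 to 0.77 for Epha3, -0.59 to 0.26 for Epha4, -0.42 to 0.74 for Epha7, -1.52 to 0.37 for Ephb3 and -0.078 to 0.19 for Ephb4. For other family genes they were -0.22 to 0.36 (Efna2), -0.54 to 1.5 (Efna4), -0.59 to 1.15 (Efnb3), -0.98 to 0.94 (Epha1), -0.55 to 0.063 (Epha10), -0.47 to 1.22 (Epha5), -0.31 to 0.67 (Epha6) and -0.59 to 0.49 (Ephb6). Leaving out 1 array unbalances the replicate numbers, which is part of how these values are built; the cause of the other changes was not tested. Centring on 75th percentiles, chosen after seeing the data for this count, put both replicate 1 arrays above the other 4 for 5 members and below for 2, in place of 7 and 1; quantile normalization, also chosen afterwards, gave 5 and 1. Dim readings have no detection call behind them, which limits every statement on the dim members.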
